A study of Rattus norvegicus with 4 samples.

Results

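GABA-A receptor subunit genes were examined in cultured rat cortical neurons at rest and after depolarization. The genes were Gabra2, Gabra3, Gabra4, Gabra5, Gabrb1, Gabrb2 and Gabrd, taken by name, and every probe set to which the array's annotation gives one of these symbols was kept. This gave 11 probe sets for 7 genes, of 1263 probe sets and 720 named genes on the array. Neurons came from the cortex of rats at embryonic day 17 and were cultured for 14 days in Neurobasal medium with B27 supplement. Both groups share this preparation. The control group received PBS for 4 h and the KCl group 25 mM KCl for 4 h, with 2 arrays each, named control 1, control 2, KCl 1 and KCl 2. The titles and treatment protocols give these groups, although the description field calls all 4 samples unactivated. Separate cultures within a group are not stated, and errors and p-values therefore describe the spread between these arrays, which may be technical.

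GABA-A receptors are chloride channels opened by GABA, the main inhibitory transmitter of the cortex. Each is a ring of subunits, commonly alpha and beta subunits, between which GABA binds, with a gamma or delta subunit. The alpha subunit sets much of the pharmacology and the site of the receptor: alpha2 is common at synapses, alpha5 is found largely outside synapses, and alpha4 with delta forms extrasynaptic receptors that give a tonic current. Raised extracellular potassium depolarizes neurons, and the comparison asks which transcripts respond within hours.

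The measure is the intensity of a probe set, in arbitrary units on a linear scale, already on one level across the 4 arrays (trimmed means of 502.0 to 502.4). Intensities up to 73.7 also occurred on probe sets for bacterial and yeast transcripts and are called within background. The neuron markers Gap43, Eno2, Syp, Nefl, Snap25, Map2, Syn1 and Nefm were bright on all arrays. Nefh, the other neuron marker measured, was dim, at 63 and 110 in controls and 107.1 and 83.5 after KCl. Its control 1 value lay within background. The 9 neuron markers measured summed to 32421 and 33721 in controls and to 30836 and 31445 after KCl. Of these 9, Snap25 passed as higher (log2 change 0.43 ± 0.10; limma adjusted p = 0.032) and 8 did not pass, among them Syp with -0.29 ± 0.10 (adjusted p = 0.12). The oligodendrocyte markers Mbp and Mog lay within background on every array, while Cnp and Mag, also of oligodendrocytes, lay above it. Itgam and Ccl2, listed here for microglia, lay within background on every array too. The other genes listed for microglia, Aif1, Cd68 and Ptprc, were not measured, so little can be said of these cells. In bulk cultures, fewer cells of a type and less RNA per cell cannot be told apart.

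At rest, the brightest of the 11 probe sets belonged to an alpha subunit and the next to another alpha subunit. They were Gabra5 on X51992_at, with 1344 and 979 on the control arrays, and Gabra2 on L08491cds_at, with 475 and 558. Gabrb1, a beta subunit, followed with 373 and 378, and then the other Gabra5 probe set, L08494cds_s_at, with 332 and 354. The delta subunit gene Gabrd stood at 301 and 289 on L08496cds_s_at. These first 5 kept the same order on both control arrays, and no neighbours among them overlapped.

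Below them lay 4 probe sets whose order was not settled by the control arrays. Gabra3 read 244 and 256 on L08492cds_s_at, Gabrd 251 and 195 on M35162_at, Gabra4 200 and 231 on L08493cds_s_at, and Gabra3 again 190 and 223 on X51991_at. Each of these 4 overlapped its neighbours among them. Gabrb2, the other beta subunit gene, was far dimmer, at 79.1 and 90.4, just above background. The second Gabra4 probe set, S55933_i_at, lay within background on every array, at 31.1 and 28.1 in controls and 16.2 and 34.2 after KCl. It fell under the filter on dim probe sets and was not tested.

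By class, alpha probe sets spanned the whole range from Gabra5 to the dim Gabra4 set, the beta pair stood at ranks 3 and 10, and the delta pair at ranks 5 and 7. In all, 7 of the 10 neighbouring pairs in the order did not overlap between the control arrays, and 3 did. The order is one of intensities. Probe sets bind their targets unequally, so it does not rank transcript amounts. Both Gabra5 probe sets are annotated to one gene, yet the brighter read 4.05 and 2.77 times the dimmer on the control arrays. Against all 1263 probe sets, Gabra5 on X51992_at stood at percentiles 88.2 and 86.1 of the control arrays, Gabra2 at 75.9 and 78.9, and Gabrb2 at 42.4 and 45.3.

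**Figure D1:**
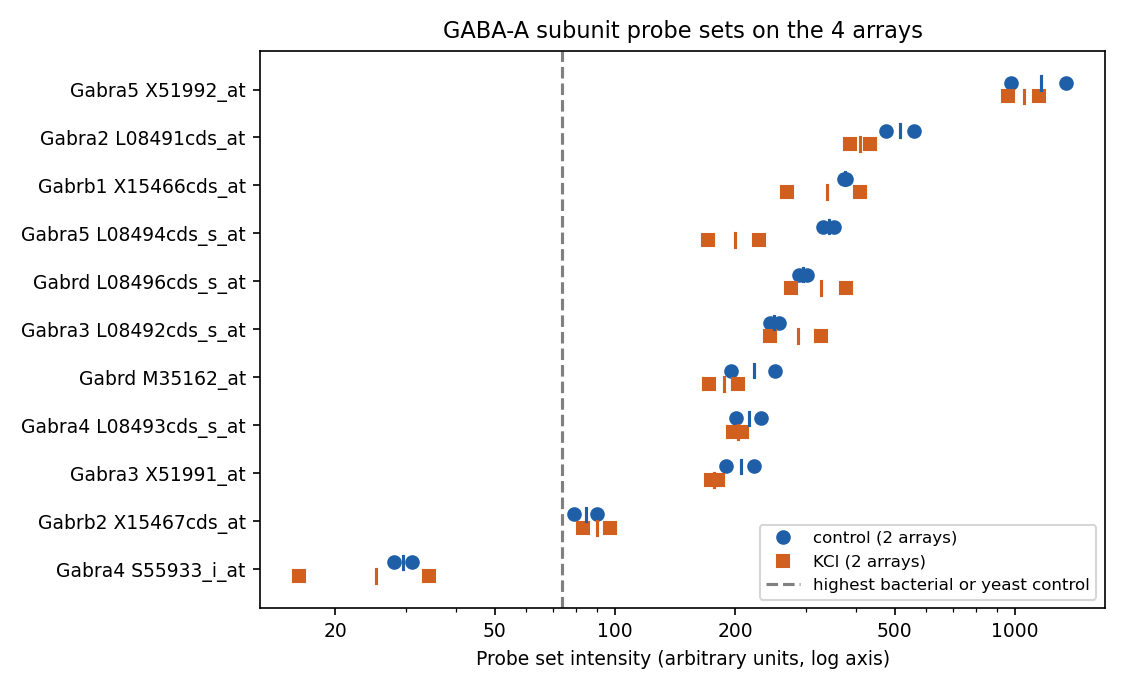
Intensity (arbitrary units, log axis) of the 11 probe sets on each control array (circles) and KCl array (squares), with short lines at the group means of n = 2 and a dashed line at 73.7, the highest background value. Only the dimmer Gabra5 set, Gabra2 and Gabra3 on X51991_at have both KCl squares to the left of both control circles.

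KCl was followed by a lower signal on 1 of the 10 tested probe sets, the dimmer one of Gabra5, and by no called rise. A call is an adjusted p below 0.05 in limma, with Benjamini-Hochberg adjustment over all 947 tested probe sets, of which 102 passed (10.8%; 5.28% lower and 5.49% higher). The members' share of 1 in 10 is near that background. The array's count was 14 without control 1, 11 without control 2 and 178 without KCl 2. With each gene read by its brightest tested probe set, 0 of 7 genes passed in limma. An unadjusted p below 0.05 was seen for 0 of these 7 and for 1 of the 10 probe sets, beside 25.6% of all tested. The median log2 change of the 10 probe sets was -0.15, beside -0.10 over all tested, and 7 of 10 were below 0, beside 60.3%. Both KCl arrays lay below both controls for 3 of 10 (36.5% of all tested) and above them for 0 of 10 (21.4% of all tested).

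Gabra5 on L08494cds_s_at read 332 and 354 in controls and 171 and 229 after KCl. Both KCl values were below both control values, with KCl 1 the lower. The means were 343 ± 15 and 200 ± 41 (SD, n = 2 arrays per group), a 1.73-fold fall with a log2 change of -0.79 ± 0.20 (SE; 95% interval -1.24 to -0.34; limma adjusted p = 0.038). Its rank among the 11 went from 4 on both control arrays to 9 on KCl 1 and 6 on KCl 2. The s in the name marks, in Affymetrix naming, probes that may match more than 1 transcript. L08492cds_s_at of Gabra3, L08493cds_s_at of Gabra4 and L08496cds_s_at of Gabrd carry the same mark.

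That call depended on single arrays. Without KCl 1 the log2 change was -0.58 (limma adjusted p = 0.082), without control 1 it was -0.84 (adjusted p = 0.25), and without control 2 it was -0.74 (adjusted p = 0.32). Without KCl 2 it was -1.003 (adjusted p = 0.00031). The direction was downward in all 12 alternatives tried, 4 of which kept the call, with adjusted p between 0.00031 and 0.32. Quantile normalization ended the call (adjusted p = 0.071), as did keeping dim probe sets (adjusted p = 0.072).

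Gabra5 on its brighter probe set, X51992_at, read 1344 and 979 in controls and 960 and 1145 after KCl. The groups overlapped, and the log2 change was -0.13 ± 0.17 (95% interval -0.52 to 0.26; limma adjusted p = 0.68). Whether the probe sets of one gene responded unequally was tested on their ratio within each array, which removes any effect common to an array. The brighter Gabra5 set read 4.05 and 2.77 times the dimmer one in controls and 5.62 and 4.99 times after KCl, without overlap. The log2 ratio differed by 0.66 ± 0.23 (95% interval 0.07 to 1.25; unadjusted p = 0.034), and it did not pass over the 283 such pairs on the array (limma adjusted p = 0.32). The difference was 0.94 without control 1 and 0.39 without control 2, and it ran from 0.39 to 0.94 over 12 alternatives with 0 passing in limma or by an ordinary t statistic. An unequal response of the Gabra5 probe sets was therefore not established, nor was an equal one.

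Gabra3 and Gabrd also have a pair of tested probe sets each, and the same ratio was formed. For Gabra3 it was 1.29 and 1.15 in controls and 1.35 and 1.89 after KCl, a log2 difference of 0.39 ± 0.30 (limma adjusted p = 0.65). For Gabrd it was 1.20 and 1.48 in controls and 1.60 and 1.86 after KCl, a difference of 0.37 ± 0.26 (limma adjusted p = 0.64). In all 3 genes both KCl ratios lay above both control ratios, as they did for 25.8% of the 283 pairs, and 0 of 3 passed in limma, with 1 unadjusted p below 0.05 (of all pairs, 0.353% passed and 12.7% had such a p). The 1 pair of all 283 that passed belonged to Bdnf, a gene named here after its value was seen, and the count was 0 without control 1 or control 2 and 6 without KCl 2.

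**Figure D2:**
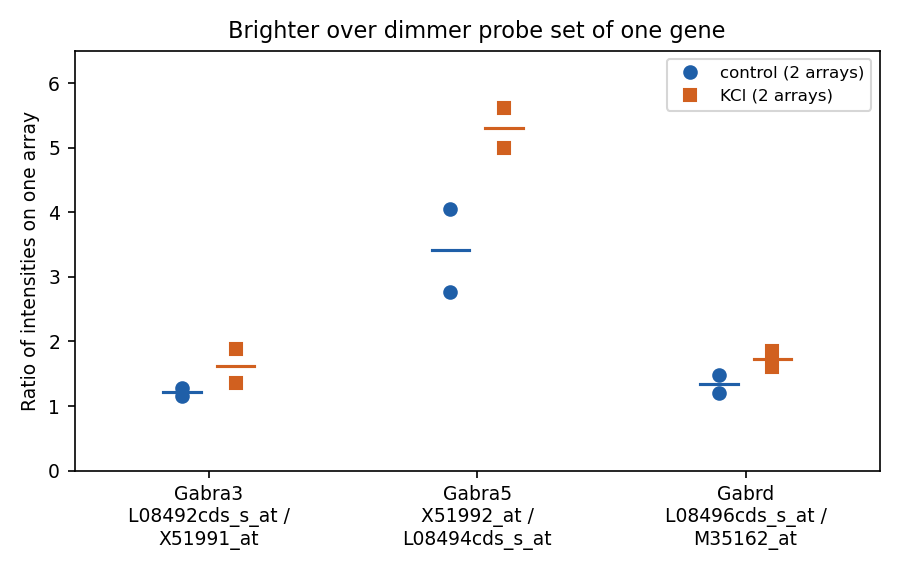
Ratio of the brighter to the dimmer probe set on each array for the 3 genes with 2 tested probe sets, in controls (circles) and after KCl (squares), with lines at the means of n = 2. KCl ratios sit above control ratios in each gene, from 4.05 and 2.77 to 5.62 and 4.99 in Gabra5, and none of the 3 differences passed after adjustment.

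Among the other alpha subunits, Gabra2 came closest. It read 475 and 558 in controls and 434 and 387 after KCl. Both KCl arrays were below both controls, and the log2 change of -0.33 ± 0.15 did not pass (95% interval -0.68 to 0.02; limma adjusted p = 0.23). It was below 0 in all 12 alternatives, between -0.44 and -0.21, and passed in 0 of 12 (limma and an ordinary t statistic; unadjusted p = 0.064 as reported).

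Gabra3, the alpha subunit gene next to Gabre on the X chromosome but for 1 gene between them, gave unlike directions on its probe sets. L08492cds_s_at read 244 and 256 in controls and 245 and 328 after KCl, so that KCl 2 alone was high (log2 change 0.18 ± 0.20, 95% interval -0.27 to 0.63). X51991_at read 190 and 223 in controls and 181 and 174 after KCl, with both KCl arrays lower (log2 change -0.22 ± 0.20, interval -0.67 to 0.24). Neither passed (limma adjusted p = 0.62 and 0.54).

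Gabra4, the alpha subunit that pairs with delta outside synapses, hardly moved on its tested probe set. L08493cds_s_at read 200 and 231 in controls and 198 and 208 after KCl, and the groups overlapped. The log2 change was -0.09 ± 0.19, with a 95% interval of -0.52 to 0.35 (limma adjusted p = 0.81), an interval that spans both directions. In cultured neurons Gabra4 has been described as a target of the Egr family of zinc-finger factors, which respond to activity. On these arrays Egr1 rose 1.72-fold on its brightest probe set, from 3843 and 4174 to 7536 and 6309 (log2 change 0.78 ± 0.12; limma adjusted p = 0.0042). Of its 4 probe sets 3 passed, and U75398_s_at did not (log2 change 0.26 ± 0.20; limma adjusted p = 0.45).

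The 250 bases before the annotated start of Gabra4 are shown because Egr1, an activity-dependent factor of that family, rose on 3 of 4 probe sets while this gene's probe set did not pass, and those of Gabra5 because it held the called probe set. They are from RefSeq, build GRCr8, which gave a sequence for 6 of the 7 genes. Gabra4 is at chr14:36944497-36944746 on the + strand and Gabra5 at chr1:117516607-117516856 on the - strand. Both are written 5′ to 3′ in the direction of transcription, and capitals mark matches to the Egr motif.
Gabra4: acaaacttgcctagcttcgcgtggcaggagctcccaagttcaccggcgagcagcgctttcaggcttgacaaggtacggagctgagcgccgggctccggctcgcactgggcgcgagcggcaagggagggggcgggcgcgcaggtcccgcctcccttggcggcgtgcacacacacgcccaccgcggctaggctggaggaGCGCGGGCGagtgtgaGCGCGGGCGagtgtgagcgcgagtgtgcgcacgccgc
Gabra5: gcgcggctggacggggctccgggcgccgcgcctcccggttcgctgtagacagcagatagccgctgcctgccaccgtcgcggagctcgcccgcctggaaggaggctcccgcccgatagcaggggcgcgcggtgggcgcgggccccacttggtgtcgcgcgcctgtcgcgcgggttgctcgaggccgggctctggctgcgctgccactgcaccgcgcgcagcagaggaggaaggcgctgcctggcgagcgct
The motifs were searched on both strands, the Egr motif GCGNGGGCG, the cAMP response element TGACGTCA and the AP-1 motif TGANTCA. Gabra4 held the Egr letters in 2 places that do not overlap, at -53 to -45 and at -37 to -29 counted from the start, each time as GCGCGGGCG. The same window held them in 4.29% of 33469 RefSeq promoters, the cAMP response element in 1.59% and the AP-1 motif in 6.34%. The windows of the other 5 genes, Gabra5 included, held none of these letters. A match describes letters and is not evidence of binding. Of the Egr family only Egr1 is reported here, and an action of Egr1 on Gabra4 was not tested. Base composition differed between these windows, with 71.6% G and C in Gabra4, 76.4% in Gabra5 and 43.2% in Gabrb2.

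The beta subunits, which with alpha form the GABA site, did not pass. Gabrb1 read 373 and 378 in controls and 410 and 269 after KCl, so that the KCl arrays fell on either side of the closely matched controls. Its log2 change was -0.18 ± 0.21 (95% interval -0.66 to 0.31; limma adjusted p = 0.65), and without KCl 2 it was 0.13. Gabrb2 read 79.1 and 90.4 in controls and 97.3 and 83.3 after KCl, overlapping and close to background. Its log2 change of 0.09 had the widest interval of the members, -0.60 to 0.78 (limma adjusted p = 0.88).

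The delta subunit gene Gabrd likewise gave no call. On L08496cds_s_at it read 301 and 289 in controls and 276 and 378 after KCl, with the KCl arrays on either side of the controls (log2 change 0.13 ± 0.19, 95% interval -0.31 to 0.57; limma adjusted p = 0.70). On M35162_at it read 251 and 195 in controls and 172 and 203 after KCl, with overlap (log2 change -0.24 ± 0.21, interval -0.73 to 0.25; adjusted p = 0.52). When single arrays were left out, the sign changed on 6 of the 10 tested probe sets, which were Gabra5 on X51992_at, Gabra3 on L08492cds_s_at, Gabra4, Gabrb1, Gabrb2 and Gabrd on L08496cds_s_at. It held on the other 4, among them the dimmer Gabra5 set and Gabra2.

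**Figure D3:**
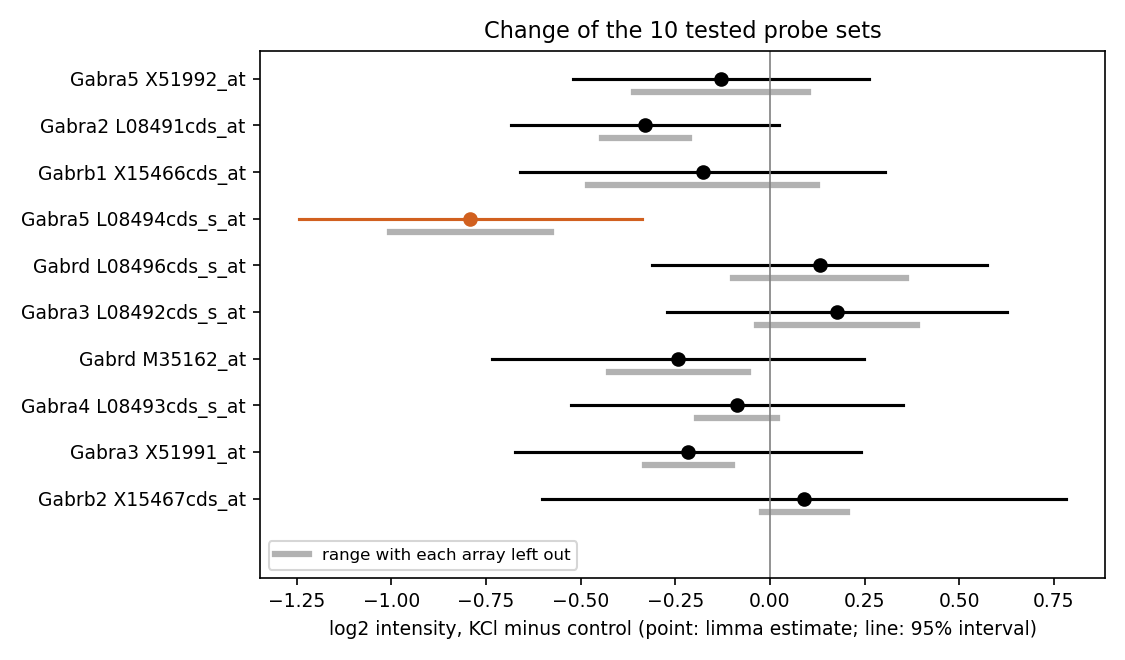
Log2 change (KCl minus control) of the 10 tested probe sets, with limma estimates as points, 95% intervals as thin lines and the range with each array left out as grey bars. The interval of the dimmer Gabra5 set (orange), -1.24 to -0.34, is the 1 that does not reach 0.

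After KCl the order of intensities changed little at its ends. Gabra5 on X51992_at and Gabra2 stayed first and second on both KCl arrays, and Gabrb2 and the dim Gabra4 set stayed last. In the middle, Gabrd on L08496cds_s_at had rank 4 on KCl 1 and rank 3 on KCl 2, and Gabrb1 ranks 3 and 5. Several of these genes also lie together in the genome. In the GRCr8 annotation Gabrb1 is next to Gabra4, and Gabra2 is next to Gabrg1, with 1 protein-coding gene, Cox7b2, between Gabra4 and Gabra2. These 3 members had log2 changes of -0.18, -0.09 and -0.33, none of which passed. Gabra5 lies next to Gabrg3, and Gabrb2 next to Gabra6.

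Gamma subunits, which most synaptic receptors contain, are no members here. Gabrg1 read 148 and 106 in controls and 106 and 141 after KCl (log2 change -0.04 ± 0.28; limma adjusted p = 0.95), and Gabrg3 lay within background on all arrays. Among 12 other GABA-A and GABA-C subunit genes listed, 8 had a symbol on the array and 4 were tested, of which limma called 0, with 0 unadjusted p-values below 0.05. Across 33 listed genes of GABA and glycine signalling beyond the members, 12 were tested, and limma called 2 lower and 0 higher. Of all tested probe sets 5.28% were called lower and 5.49% higher. The median log2 change of the 12 was -0.34, beside -0.10 over all tested. Gad1, which makes GABA, fell from 1117 and 931 to 253 and 346 (log2 change -1.79 ± 0.18), and Slc32a1, which loads it into vesicles, from 1683 and 1646 to 515 and 601 (-1.58 ± 0.13; limma adjusted p = 0.00048 and 1e-04). Neither passed without control 1 or without control 2, where 0 of the 12 genes did, and without KCl 2 the count of falls was 4. The next smallest p-values were those of the GABA-B receptor gene Gabbr2 (log2 change -0.40 ± 0.11; limma adjusted p = 0.055) and the glycine receptor gene Glra2 (-0.45 ± 0.17; adjusted p = 0.15).

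**Figure D4:**
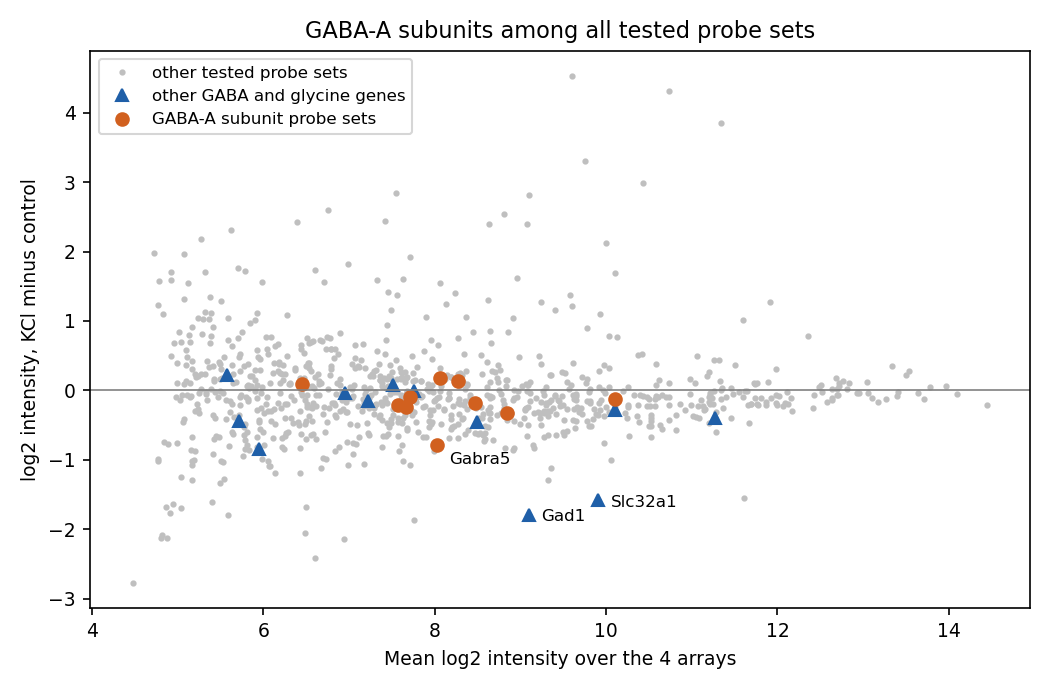
Log2 change against mean log2 intensity for all 947 tested probe sets (grey), with the 10 GABA-A subunit probe sets (circles) and the 12 other GABA and glycine genes (triangles). The subunits lie within the bulk of the array, with the dimmer Gabra5 set at -0.79, while Gad1 and Slc32a1 lie lower, at -1.79 and -1.58.

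Markers of other cells moved on the same arrays as the Gabra5 fall. The 7 astrocyte markers measured, of 10 listed, summed to 5484 and 5220 in controls and to 12551 and 9974 after KCl, 6 of 7 passing as higher. The 4 inhibitory neuron markers measured, of 9 listed, summed to 8893 and 8374 in controls and to 3094 and 3702 after KCl, with Gad1, Slc32a1 and Sst lower and Npy not passing. The 2 endothelial and fibroblast markers measured, Vcam1 and Icam1, of 6 listed, summed to 107.6 and 107.3 in controls and to 178 and 208 after KCl, and neither passed (limma adjusted p = 0.14 and 0.23). No marker of these lists was at 0 on any array. The 3′ to 5′ signal ratio of hexokinase, a measure of RNA integrity, was 2.25 and 2.00 in controls and 2.49 and 2.67 after KCl, while that of Gapdh (1.17 and 1.23, then 1.19 and 1.17) and of β-actin (1.08 and 1.12, then 1.08 and 1.08) overlapped between the groups. The part of these in the Gabra5 result was not tested.

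The probe sets most like the dimmer Gabra5 set were sought by the root mean square difference of log2 intensity over the 4 arrays, each centred on its own mean. The 5 closest of 851 were Hcrtr2 (0.06), Atp1b2 (0.08), Nlgn3 (0.08), Cspg5 (0.08) and Atp2b2 (0.08), against a median of 0.43. Of these, Cspg5 (log2 change -0.67 ± 0.15; limma adjusted p = 0.025) and Atp2b2 (-0.85 ± 0.15; adjusted p = 0.0091) passed the test, and the other 3 did not. With 4 arrays in 2 groups, this measure holds little beyond the size of the change and the order of the arrays within a group.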

How the data were processed

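Intensities of 1322 probe sets on 4 Affymetrix neurobiology arrays were used, 2 control and 2 KCl. Per the labels' protocols, 5 µg of total RNA gave the biotin-labelled cRNA. The deposited intensities are linear and already on one level, since their trimmed means agree. The algorithm behind them is not given in the sources used here. They were taken to log2 with no pseudocount, as all were above 0. Gene symbols came from the platform annotation. The 59 Affymetrix control probe sets and the dimmest 25% by mean intensity (316 probe sets, means at most 33.3) were removed, leaving 947. KCl was compared with control by limma 3.58.1 in R 4.3.3 (lmFit, eBayes with an intensity trend, two-sided, Benjamini-Hochberg). An exact permutation test of 2 against 2 arrays cannot give a two-sided p below 0.33, so calls draw on variance pooled over the array. Precision is limited by the number of arrays, with a median SE of 0.21 (log2). Within-array ratios of each gene's brightest tested probe set to its others were fitted likewise over 283 pairs. Scripts were tested on simulated data. Alternatives were quantile normalization, median centring, a pseudocount of 16, no or a 50% filter on dim probe sets, eBayes without trend, an ordinary t statistic, a replicate block and each array left out. Besides the members, the text names list genes that passed or had the 4 smallest p-values, and the 5 probe sets most like the member with the smallest p. Other genes, such as cell type markers, Egr1, Bdnf, the gamma subunits, Gabbr1 and the list genes below the filter, were named outside this rule, after their values were seen. Members and lists were chosen with earlier results of these data known.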

Additional observations from a re-analysis of the deposited data

How the results depend on the processing

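As reported, 102 probe sets of the array, 1 member probe set, 2 other GABA pathway genes and 1 probe set pair were called, and 7 neighbouring pairs of the resting order did not overlap. Over the whole array, 21 were called with eBayes without intensity trend and 0 with the ordinary t statistic (157 at an unadjusted p below 0.05). With quantile normalization, with no filter on dim probe sets, with eBayes without trend and with the ordinary t statistic, 0 member probe sets were called, and 1, 1, 1 and 0 had an unadjusted p below 0.05. With eBayes without trend 1 other GABA pathway gene and 2 pairs were called, and with the ordinary t statistic 0 and 0. Quantile normalization left 6 neighbouring pairs of the resting order apart. The deviations of same-numbered arrays had a correlation of -0.03. With 4 arrays this value cannot show whether replicate numbers pair the arrays. With a replicate block 50 probe sets, 0 member probe sets (1 at an unadjusted p below 0.05) and 2 pairs were called, and the dimmer Gabra5 set had an adjusted p of 0.087. When single arrays were left out, the counts ran from 11 to 178 over the array, from 0 to 1 for members, from 0 to 4 for other GABA pathway genes and from 0 to 6 for pairs. The lowest array count was without control 2, the highest without KCl 2. No scaling changed the sign of a member, and quantile normalization moved the median change of all probe sets by 0.02. Of 155 other values of members and their pairs under alternatives, 147 stayed on their side of the threshold and 8, all of the dimmer Gabra5 set, lost the call. The cause of these differences was not tested. The dim Gabra4 set, within background, gives no usable change.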

Other observations

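Of the 19 listed GABA and glycine genes with a symbol, 7 lay below the filter on dim probe sets and entered no test, all within background on every array. Slc6a13, which encodes a GABA transporter, read 49.8 and 44.6 in controls and 14.0 and 13.1 after KCl. Nlgn2, which encodes the neuroligin of inhibitory synapses, read 31.0 and 50 in controls and 17.9 and 21.7 after KCl. Gabrp read 17.5 and 16.3 in controls and 4.4 and 12.7 after KCl. Gabrr2, a GABA-C subunit gene, read 5.5 and 5.5 in controls and 11.1 and 8.2 after KCl. In Gabrg3, Gabrr3 and Glra3 the groups overlapped. Within background, none of these readings gives a usable direction. Groups that do not overlap were also common among tested probe sets, with KCl lower in 36.5% and higher in 21.4%.

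Gabbr1 and Gabbr2, which encode the subunits of the metabotropic GABA-B receptor, each had several tested probe sets. All 5 with the Gabbr1 symbol had a log2 change below 0, from -0.45 to -0.04, and 0 passed in limma. The 1 unadjusted p below 0.05 was on AB016160_g_at, which read 647 and 631 in controls and 519 and 503 after KCl. AB016161UTR#1_at and AB016161UTR#1_g_at carry no symbol but share the first part of their name with Gabbr1 probe sets. Their log2 changes were 0.44 ± 0.22 and -0.14 ± 0.12 (limma adjusted p = 0.24 and 0.52), so not every such probe set was below 0. All 3 of Gabbr2 were below 0 as well, at -0.40, -0.15 and -0.63, and 0 passed (2 unadjusted p-values below 0.05). Its brightest set read 2994 and 2689 in controls and 2089 and 2216 after KCl. Of all tested probe sets, 60.3% were below 0 and 25.6% had an unadjusted p below 0.05 in limma. Probe sets of one gene on the same arrays are not independent, so their shared sign adds little.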
